A study of Mus musculus with 24 samples.

Results

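The 10 genes described here belong to MHC class I antigen presentation: the heavy chains H2-K1, H2-D1, H2-Q4, H2-Q6, H2-Q7, H2-T22 and H2-T23, the light chain B2m, and both subunits of the peptide transporter, Tap1 and Tap2. They were chosen by gene name, partly because H2-Q6 and H2-Q7 stood higher in immortalized Mlx-knockout cells of the same data, so that contrast is given below as a description with no test. The names matched 10 of the 41710 rows in each of both expression tables. A classical class I molecule shows a peptide to CD8 T cells and is a heavy chain bound to beta-2 microglobulin and that peptide, which is cut from cytosolic proteins by the proteasome and carried into the endoplasmic reticulum by the TAP transporter. Nearly all nucleated cells carry class I molecules, and fibroblasts raise them strongly after interferon, through factors such as Irf1 and Nlrc5. H2-K1 and H2-D1 are the classical heavy chains, whereas the Qa and T region genes encode nonclassical chains with narrower expression or more specialised partners.

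The study asked what happens to mouse embryonic fibroblasts (MEFs) when the transcription factor Myc, the Max-like factor Mlx, or both are deleted. RNA was sequenced from primary MEFs and from MEFs immortalized with SV40 T-antigen, each as wild type (WT), MlxKO, MycKO and Myc and Mlx double knockout (DKO), in 8 groups of 3 libraries. The MEFs were grown from pools of embryos aged 14 to 16 days. Myc, Mlx or both loci were floxed on each chromosome copy, and a CreER transgene, driven by the ROSA26 promoter that is active in all tissues, was homozygous. Cre was switched on with 4-hydroxytamoxifen (4OHT), given against an ethanol vehicle, and WT names cells whose floxed loci were intact. Primary knockout cells received 500 nM 4OHT for at least 7 days and then 250 nM, were kept free of it for at least 3 days before use, and gave RNA on day 10. Immortalized cells were exposed for 72 h to a lentivirus for T-antigen and blasticidin resistance and selected in blasticidin at 1 and then 2 µg/ml. The immortalized knockouts then had 500 nM 4OHT for 10 days, while the immortalized WT cells had none. The vehicle was 70% ethanol by the labels and 100% by the study's methods, and the pooled embryos numbered at least 6 by the labels and 8 to 12 per group by the methods. Each genotype was a floxed line of its own, with a single WT line as the control in most cases, so that line and genotype cannot be told apart. The labels give 4OHT to every knockout group and to no WT group. In comparisons with WT, exposure to 4OHT with active Cre and genotype therefore cannot be told apart either. The labels do not say that the 3 libraries of a group came from separate cultures, so the p-values measure only the spread between these libraries, which may be technical. For primary cells the study's text names them biological replicates.

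Expression is given as CPM, the reads of a gene scaled to the size of its library, and was used as deposited. The columns summed to 915691 to 1077213, so a further scaling that is not described had been applied to them. The libraries were poly-A selected and directional, from RNA with a RIN of at least 9.6, and held 15986856 to 20966163 reads on genes (median 18208568), recovered from the CPM values. At that depth 3 reads, about the upper limit that a count of 0 allows, corresponded to 0.145 to 0.196 CPM, which covers counting error only. A gene was tested when it reached 1 CPM in at least 3 libraries of its table: 13101 genes in primary and 12880 in immortalized MEFs, with all 10 class I genes in both. Called means an adjusted p under 0.05 in limma, with Benjamini-Hochberg adjustment over all genes tested in the table. Fold changes are differences of log2(CPM + 1), which shrinks those of genes near 1 CPM. The deleted genes served as a check of the labels. Myc read 100.1, 89.8 and 91.8 CPM in the WT libraries, 85.6, 89.6 and 87.3 in MlxKO, 25.8, 26.8 and 26.8 in MycKO and 21.6, 22.9 and 19.9 in DKO. Both groups without Myc were low, with log2 fold changes against WT of -1.79 in MycKO and -2.08 in DKO (adjusted p = 5.95e-11 and 4.24e-12). Mlx read 26.02, 20.5 and 24.5 CPM in the WT libraries, 13.01, 13.5 and 13.97 in MlxKO, 21.1, 17.3 and 20.5 in MycKO and 11.8, 11.99 and 9.73 in DKO. Its transcript fell in the primary groups labelled MlxKO and DKO, but only to 0.569 and 0.472 of the WT mean (log2 fold changes -0.76 and -1.02, adjusted p = 0.000405 and 1.48e-06). The study's loxP sites lie inside each gene, so transcript from outside the deleted exons can still be counted. In the immortalized table Myc was at 0.144 of the WT mean in MycKO and 0.0680 in DKO, and Mlx at 0.601 in MlxKO and 0.728 in DKO, the last not called (adjusted p = 0.0694). Without WT4 the ratios were 0.289 and 0.137 for Myc and 0.570 and 0.690 for Mlx, and the Mlx change in DKO was called (log2 fold change -0.52, adjusted p = 0.0339).

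The immortalized WT library named WT4 stood apart from WT2 and WT3. Its log2 values correlated with theirs at r = 0.95 and 0.943, against 0.992 between WT2 and WT3, each over the genes tested. WT4 was low in class I and interferon genes: Tap1 read 67.2, 87.6 and 8.83 CPM in WT2, WT3 and WT4 and Isg15 83.9, 140.4 and 3.35. Fibroblast markers went both ways there. Pdgfra was higher, at 98.8, 116 and 565 CPM in the same order, as was Thy1 at 14.9, 21.1 and 123. Col1a1 was lower, at 14534, 15401 and 7714 CPM, as was Dcn at 16.3, 13.6 and 6.09. Myc was higher in WT4, at 48.1, 39.9 and 177 CPM. Xist, expressed from the inactive X chromosome, and Ddx3y, on the Y chromosome, were looked up after values were seen. Xist read 2114, 1574 and 549.7 CPM and Ddx3y 6.56, 4.61 and 106 in these libraries, so WT4 differed from both others in each. Ddx3y was at 56.8, 42.9 and 43.7 in immortalized MlxKO, 19.1, 20.8 and 19.8 in MycKO and 1.25, 1.75 and 2.04 in DKO. Xist was at 266, 254 and 238 CPM in immortalized MlxKO, 395, 526 and 483 in MycKO and 1133, 1156 and 790 in DKO. In primary cells Xist was 143, 176 and 186 CPM in the WT libraries, 171, 186 and 113 in MlxKO, 103, 146 and 102 in MycKO and 545, 529 and 544 in DKO. Primary Ddx3y was 50.5, 53.4 and 55.8 CPM in the WT libraries, 60.6, 59.2 and 56.3 in MlxKO, 73.4, 84.8 and 67.3 in MycKO and 10.5, 10.9 and 10.1 in DKO, lowest in DKO. These levels differed between groups and their part in the results was not tested, so line, sex of the pooled embryos and genotype cannot be told apart. Tests against the immortalized WT libraries are given with and without WT4.

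In the GRCm39 gene models 9 of the 10 genes lie within 2.14 Mb of chromosome 17, in the major histocompatibility complex. The classical genes were H2-K1 (ENSMUSG00000061232, chr17:34214987-34219321, minus strand) and H2-D1 (ENSMUSG00000073411, chr17:35481691-35486475, plus strand). The Qa genes H2-Q4 (ENSMUSG00000035929, chr17:35598586-35604274), H2-Q6 (ENSMUSG00000073409, chr17:35643777-35655332) and H2-Q7 (ENSMUSG00000060550, chr17:35658131-35662749) follow each other in this order on the plus strand. H2-T23 (ENSMUSG00000067212, chr17:36340229-36345571) and H2-T22 (ENSMUSG00000056116, chr17:36348020-36353650) lie at the far end, on the minus strand. Tap1 (ENSMUSG00000037321, chr17:34405996-34416199) and Tap2 (ENSMUSG00000024339, chr17:34422501-34435829) are on the plus strand, and Tap1 overlaps the immunoproteasome gene Psmb9 on the opposite strand. B2m (ENSMUSG00000060802, chr2:121977957-121983594, plus strand) stands alone on chromosome 2 and overlaps Patl2 on the opposite strand. Whether strand was used in counting is not stated.

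**Figure D1:**
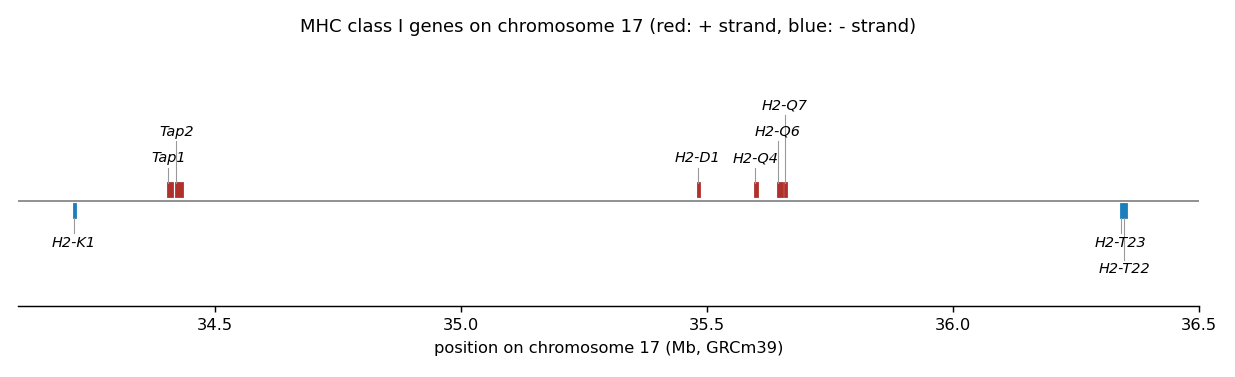
Positions of the 9 class I genes on chromosome 17 in GRCm39, with boxes above the line for the plus strand and below it for the minus strand. Tap1 and Tap2 sit between H2-K1 and H2-D1, H2-Q4, H2-Q6 and H2-Q7 follow H2-D1, and H2-T23 and H2-T22 are the most distant from H2-K1.

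The heavy chain genes share stretches of sequence, which limits how reads are told apart among them. Of the 50-base stretches in its transcripts, H2-Q6 shared 30% exactly with another gene, most often H2-Q7 (12.9%) and H2-Q4 (11.6%). H2-T22 shared 30.1%, nearly all with H2-T10 (27.2%), and H2-Q4 26.9% and H2-Q7 24.6%. The shares were 13.1% in H2-T23, 12.6% in H2-D1 and 11.3% in H2-K1, and at most 0.501% in Tap1, Tap2 and B2m. With 100-base stretches the largest share among the 10 genes was 9.85%, in H2-Q7. A read from a shared stretch can be counted for either gene, so sums over H2 genes, which do not change when reads move between the genes summed, are given beside the single values.

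Compared per kilobase of exon, the light chain was the most abundant class I transcript in primary WT cells. B2m stood at 395 ± 32.1 CPM per kb (SD, n = 3), followed by H2-D1 at 114 ± 16.2 and H2-K1 at 64.5 ± 8.65. H2-T22 came next at 21.2 ± 3.24, then H2-Q4 at 10.1 ± 1.73 and H2-T23 at 8.44 ± 0.659, whose libraries overlapped. The transporter genes Tap1, at 5.41 ± 0.965, and Tap2, at 5.10 ± 0.461, also overlapped, and H2-Q7 (1.01 ± 0.0892) and H2-Q6 (0.515 ± 0.102) were the scarcest. By group means the same order of B2m, H2-D1 and H2-K1 headed all 8 groups. By their means H2-Q6 and H2-Q7 were the lowest of the 10 in all primary groups and in immortalized WT and MycKO, although H2-T23 in WT4 was below H2-Q7. They were not the lowest in immortalized MlxKO (49.6 ± 6.74 and 42.1 ± 2.08), where Tap1, Tap2 and H2-T23 were lower, or in immortalized DKO, where H2-T23 (5.90 ± 0.875) overlapped with H2-Q7 (7.10 ± 0.528).

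In primary cells most class I genes were lowest without Myc alone. H2-K1, a classical heavy chain, read 235, 201 and 180.5 CPM in the WT libraries, 175, 186 and 211 in MlxKO, 119, 104 and 124 in MycKO and 221, 221 and 228 in DKO. H2-D1, the other classical chain, read 394, 330.2 and 299.7 CPM in the WT libraries, 301, 289 and 335 in MlxKO, 204, 162 and 224 in MycKO and 375, 374 and 399.5 in DKO. For both genes the MycKO libraries lay below all others, and the other groups overlapped with WT. H2-Q4, a Qa chain, read 39.1, 38.7 and 28.3 CPM in the WT libraries, 33.7, 30.5 and 33.8 in MlxKO, 19.6, 16.4 and 20.3 in MycKO and 34.5, 34.12 and 37.3 in DKO. H2-Q6, a Qa-2 gene, read 2.14, 1.68 and 1.46 CPM in the WT libraries, 2.19, 2.09 and 1.64 in MlxKO, 0.111, 0.327 and 0.747 in MycKO and 1.58, 2.27 and 1.67 in DKO. H2-Q7, the other Qa-2 gene, read 4.46, 4.56 and 3.86 CPM in the WT libraries, 3.47, 4.84 and 4.47 in MlxKO, 1.33, 0.458 and 1.39 in MycKO and 2.15, 4.23 and 3.34 in DKO. All 3 Qa genes were lowest in MycKO, with the H2-Q6 value of 1 MycKO library below 3 reads, and their DKO libraries overlapped with WT. H2-T22, a T region chain seen by gamma delta T cells, read 84.3, 71.6 and 62.2 CPM in the WT libraries, 57.3, 52.3 and 62.1 in MlxKO, 73.3, 53.9 and 74.3 in MycKO and 76.4, 78.9 and 83.2 in DKO. H2-T23, which encodes Qa-1, a ligand of receptors on natural killer cells, read 31.4, 28.3 and 27.1 CPM in the WT libraries, 29.1, 30.02 and 29.6 in MlxKO, 29.1, 28.98 and 31.5 in MycKO and 38.3, 38.8 and 41.6 in DKO. H2-T22 in MycKO overlapped with WT, and H2-T23 was high in DKO alone. B2m, the light chain, read 889, 757 and 851 CPM in the WT libraries, 778, 777 and 868 in MlxKO, 534, 643 and 507 in MycKO and 808, 844 and 820.3 in DKO, with MycKO below all other libraries. Tap1 read 39.2, 29.2 and 29.04 CPM in the WT libraries, 27.6, 26.7 and 25.01 in MlxKO, 20.96, 17.7 and 18.8 in MycKO and 26.9, 25.8 and 30.6 in DKO. Tap2 read 25.9, 25.2 and 21.8 CPM in the WT libraries, 23.2, 23.4 and 23.5 in MlxKO, 31.2, 21.6 and 28.9 in MycKO and 38.7, 35.1 and 35.1 in DKO. The transporter subunits thus differed: Tap1 was lowest in MycKO, whereas Tap2 overlapped between MycKO and WT and was highest in DKO.

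**Figure D2:**
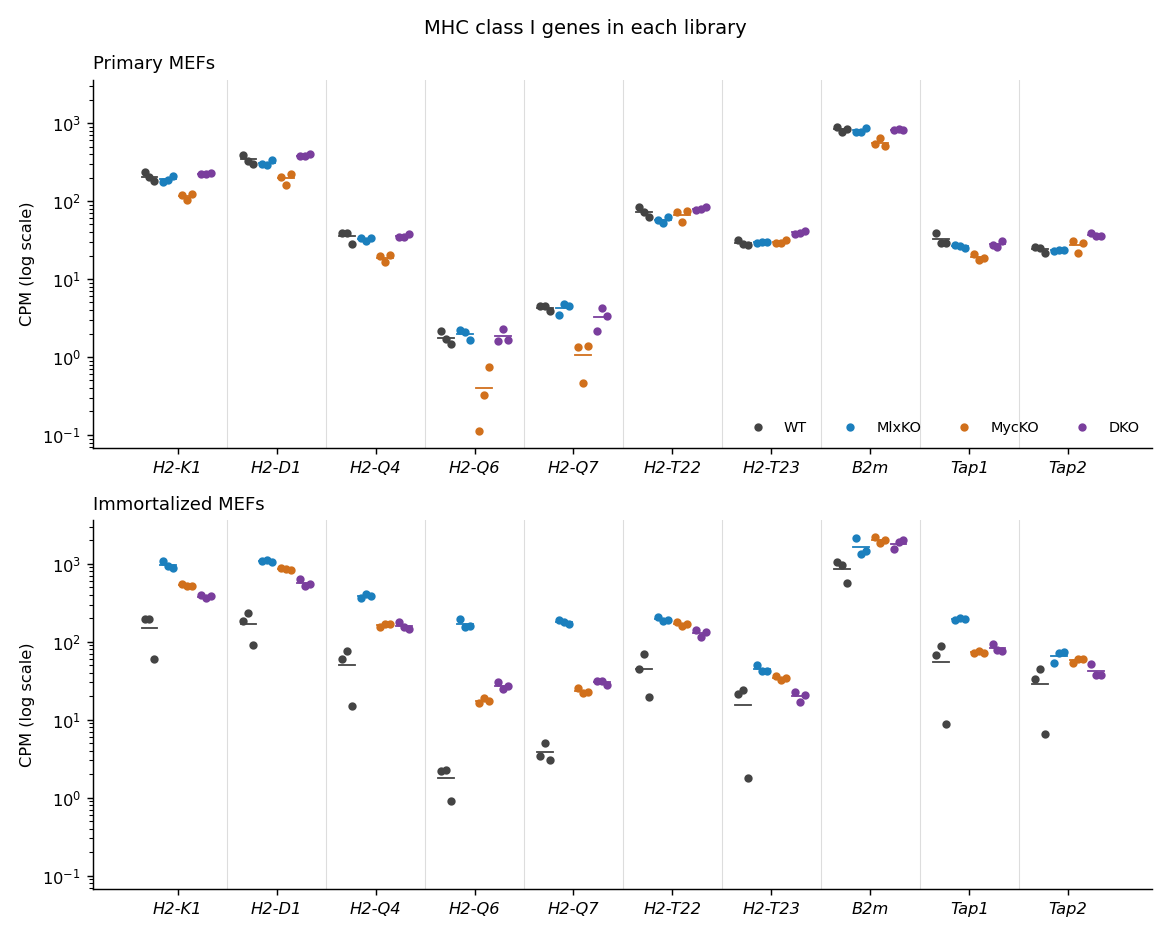
CPM on a log scale of each class I gene in each library, with 3 points and a bar at their mean for WT, MlxKO, MycKO and DKO, in primary (top) and immortalized MEFs (bottom). Primary MycKO points lie lowest for 7 genes, and in immortalized cells the WT points lie lowest for most genes, with WT4 as the lowest of them. Of all genes tested in primary cells, 24.6% had every MycKO library below every WT library. In immortalized cells 23.9%, 25.99% and 19.2% had every MlxKO, MycKO and DKO library above every WT library.

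The comparison of primary MycKO with WT asked what loss of Myc alone did. Of the 10 class I genes 7 fell and 0 rose, where 42.3% of all genes tested were called, 20.4% higher and 21.9% lower. Counted without H2-Q6 and H2-Q7, 5 of 8 fell. H2-Q6 was below 1 CPM in every MycKO library and passed the filter through the other groups. Scaled to library totals, a smaller part of all the genes called was higher, as given under the processing. Both classical chains fell, with log2 fold changes of -0.82 (95% interval -1.01 to -0.62, adjusted p = 2.61e-06) for H2-K1 and -0.80 (95% interval -1.02 to -0.57, adjusted p = 1.65e-05) for H2-D1. Among the Qa genes the changes were -0.87 (95% interval -1.11 to -0.63, adjusted p = 1.21e-05) for H2-Q4, -1.004 (95% interval -1.40 to -0.61, adjusted p = 0.000365) for H2-Q6 and -1.39 (95% interval -1.83 to -0.95, adjusted p = 4.85e-05) for H2-Q7. B2m changed by -0.57 (95% interval -0.75 to -0.39, adjusted p = 4.01e-05) and Tap1 by -0.72 (95% interval -0.96 to -0.49, adjusted p = 6.41e-05). The 3 not called were H2-T22 at -0.12 (adjusted p = 0.458), H2-T23 at 0.05 (adjusted p = 0.666) and Tap2 at 0.15 (adjusted p = 0.317). Without the library MycKO10 Tap2 was called higher (adjusted p = 0.00964). In bulk RNA, fewer cells of a type and less RNA per cell cannot be told apart.

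For loss of Mlx alone in primary cells, primary MlxKO was compared with WT. By limma 0 of 10 class I genes were called, where 8.88% of all genes were, 3.75% higher and 5.14% lower. That share rests on single libraries: 620 genes instead of 1164 were called without WT1, and 2025 without MycKO10. Scaled to library totals, more of the genes called were higher than lower, as given under the processing. At an unadjusted p under 0.05 limma gave 2, edgeR called 0 after adjustment, and DESeq2 called 1, H2-T22. H2-T22 was at -0.33 (95% interval -0.58 to -0.08, adjusted p = 0.0904) and Tap1 at -0.27 (95% interval -0.51 to -0.04, adjusted p = 0.138). H2-T22 was called lower without the library WT3 (adjusted p = 0.0275) or without MycKO10 (0.0144), which enters only through the pooled spread. The log2 fold changes of the other 8 ran from -0.14 in H2-D1 to 0.11 in H2-Q6. The 95% intervals of H2-K1 (-0.30 to 0.09) and B2m (-0.22 to 0.14) bound the change that these libraries allow.

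With both factors deleted, most class I genes in primary cells were not called against WT. Of the 10 genes 2 were called, both higher, where 49.5% of all genes were called, 24.01% higher and 25.5% lower. H2-T23 rose by 0.44 (95% interval 0.28 to 0.60, adjusted p = 0.000176) and Tap2 by 0.56 (95% interval 0.33 to 0.80, adjusted p = 0.000533). The heavy chains H2-K1 (0.13, 95% interval -0.07 to 0.32, adjusted p = 0.259) and H2-D1 (0.17, 95% interval -0.05 to 0.40, adjusted p = 0.194) were not called, but without the library WT1 both were called higher (adjusted p = 0.0491 and 0.0442), which makes 4 genes. B2m was at -0.01 (95% interval -0.19 to 0.17, adjusted p = 0.924), H2-Q4 at 0.01 (adjusted p = 0.947) and H2-Q7 at -0.35 (adjusted p = 0.177). Tap1 was at -0.21 (adjusted p = 0.132) and was called lower when scaled to library totals (-0.29, adjusted p = 0.043). This comparison, that of MycKO and that of MlxKO share the 3 primary WT libraries.

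The direct comparison of DKO with MycKO, which uses WT libraries only through the pooled spread, asked what loss of Mlx did in cells already without Myc. Of the 10 class I genes 9 rose and 0 fell, where 21.5% of all genes were called, 10.6% higher and 10.95% lower. Counted without H2-Q6 and H2-Q7, of which H2-Q6 was below 1 CPM in every MycKO library, 7 of 8 rose. The classical chains rose by 0.95 (95% interval 0.75 to 1.14, adjusted p = 1.16e-06) for H2-K1 and 0.97 (95% interval 0.74 to 1.195, adjusted p = 4.85e-06) for H2-D1. The Qa genes rose by 0.88 (adjusted p = 2.61e-05) in H2-Q4, 1.04 (adjusted p = 0.000603) in H2-Q6 and 1.04 (adjusted p = 0.00154) in H2-Q7. H2-T23 rose by 0.39 (adjusted p = 0.00135), B2m by 0.56 (adjusted p = 0.000119), Tap1 by 0.52 (adjusted p = 0.00287) and Tap2 by 0.42 (adjusted p = 0.0123). H2-T22 was at 0.25 (adjusted p = 0.144) and not called. The call of Tap2 was lost without the library DKO13 (adjusted p = 0.0619).

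Whether loss of Mlx acted differently with and without Myc was tested as an interaction, the Mlx effect in cells without Myc minus that in cells with it. It was positive and called for 9 of 10 class I genes, where 13.5% of all genes were called, 7.47% higher and 6.07% lower. Counted without H2-Q6 and H2-Q7, it was called for 7 of 8. The terms were 1.05 (95% interval 0.77 to 1.32, adjusted p = 3e-05) for H2-K1 and 1.11 (95% interval 0.79 to 1.43, adjusted p = 8.68e-05) for H2-D1. They were 0.98 (adjusted p = 0.000451) for H2-Q4, 0.60 (adjusted p = 0.00217) for B2m and 0.79 (adjusted p = 0.00239) for Tap1, and these 5 kept their call whichever library was left out. The remaining calls rested on single libraries. H2-Q6, at 0.93 (adjusted p = 0.0244), was not called without WT1, MlxKO7, MycKO9 or DKO14 (adjusted p = 0.0659 to 0.0728). H2-Q7, at 1.06 (adjusted p = 0.0225), was not called without WT2, MlxKO5, DKO14 or DKO15 (0.0549 to 0.0706). H2-T22, at 0.59 (adjusted p = 0.0256), was not called without WT1, WT2, MlxKO5, MlxKO6, DKO14 or DKO15 (0.0506 to 0.077). H2-T23, at 0.36 (adjusted p = 0.0363), was not called without any of WT1, WT2, MlxKO5, MlxKO6, MlxKO7, MycKO9, DKO13, DKO14 and DKO15 (0.0541 to 0.11). Tap2, at 0.47 (adjusted p = 0.0611), was called without WT3 (adjusted p = 0.0326) or MycKO9 (0.0222) and by DESeq2 (0.0365). The count was 5 without DKO14. With no filter on low values H2-Q7 and H2-T22 were not called (adjusted p = 0.0729 and 0.0767).

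**Figure D3:**
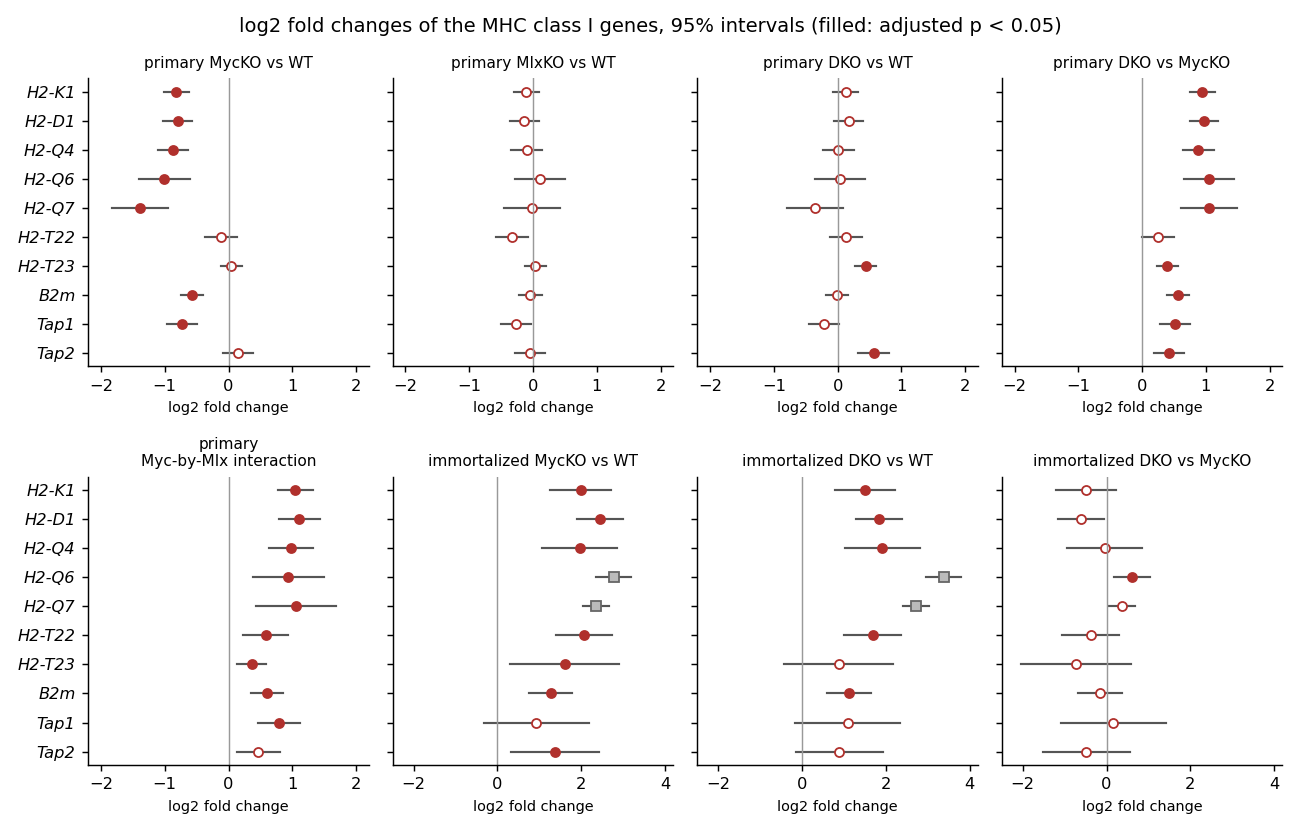
log2 fold changes of the class I genes (points) with 95% intervals (lines) in each tested comparison, filled where the adjusted p was under 0.05. In primary cells 7 genes were called below 0 in MycKO against WT and 9 were called above 0 in DKO against MycKO; grey squares mark H2-Q6 and H2-Q7 in the immortalized comparisons with WT, whose WT libraries took part in choosing them.

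Reads moving between the H2 genes summed do not change their sum. The H2-Q6 and H2-Q7 sum was 6.60, 6.25 and 5.32 CPM in primary WT, 5.65, 6.94 and 6.11 in MlxKO, 1.44, 0.785 and 2.14 in MycKO and 3.73, 6.50 and 5.01 in DKO. Summed over all 7 H2 genes the values were 791, 676 and 603 CPM, 602, 595 and 677, 446, 367 and 476 and 749, 753 and 795 in the same order. MycKO was the lowest group by both sums, and its libraries overlapped with no other group. An exact permutation test of 3 against 3 libraries cannot go below p = 0.1, so the sums stand as values.

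Other genes of antigen presentation were read as lists. In primary MycKO against WT the median log2 fold change of all genes was 0.00021. The 6 peptide loading genes gave 1 higher, 3 lower and 2 not called (median -0.16): Tapbp, which encodes tapasin, fell (log2 fold change -0.49 (adjusted p = 0.000821)), as did the trimming peptidase Erap1 (-0.27, adjusted p = 0.0441), while the tapasin relative Tapbpl rose by 0.66 (adjusted p = 0.000188). The 5 immunoproteasome genes gave 0 higher, 3 lower and 2 not called, with the catalytic subunits Psmb8 at -1.19 (adjusted p = 1.24e-06) and Psmb9 at -1.01 (adjusted p = 0.000994) and the activator Psme1 at -0.28 (adjusted p = 0.0151). The catalytic subunit Psmb10 and the activator Psme2 were not called (log2 fold changes -0.25 and -0.16, adjusted p = 0.138 and 0.17). The 18 regulators gave 4 higher, 5 lower and 9 not called (median 0.10), with Nlrc5, the class I transactivator, at -1.37 (adjusted p = 1.26e-06) and Irf9 at -0.77 (adjusted p = 2.3e-06). Irf1 was not called (0.25, adjusted p = 0.0793). Of the 7 other class I genes tested, 2 rose and 2 fell (median 0.00089), with Fcgrt, the neonatal Fc receptor, at 0.78 (adjusted p = 6.89e-06), Mr1 at 0.54 (adjusted p = 0.000302) and Hfe at -0.75 (adjusted p = 0.000289). So the fall did not extend to every class I relative that binds B2m.

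In primary MlxKO against WT few genes of the lists were called. Peptide loading gave 0 higher, 2 lower and 4 not called, the lower ones being the chaperones Calr (-0.33, adjusted p = 0.00752) and Pdia3 (-0.25, adjusted p = 0.0186), and immunoproteasome 0 higher, 0 lower and 5 not called. Regulators gave 1 higher, 0 lower and 17 not called, the higher one being Stat2 (0.30, adjusted p = 0.0111), and other class I genes 0 higher, 0 lower and 7 not called. Not called were Nlrc5 (-0.11), Tapbp (-0.05), Irf1 (-0.27), Psmb8 (-0.28) and Psmb9 (-0.26). In DKO against WT the counts were 1 higher, 4 lower and 1 not called for peptide loading, 0 higher, 3 lower and 2 not called for immunoproteasome, 3 higher, 4 lower and 11 not called for regulators and 2 higher, 0 lower and 5 not called for other class I genes. There Psmb8 (-0.74, adjusted p = 0.000119), Psmb9 (-0.64, adjusted p = 0.0182), Psmb10 (-0.33, adjusted p = 0.0411) and Nlrc5 (-0.87, adjusted p = 9.91e-05) were lower than in WT, as were Irf1 (-0.38, adjusted p = 0.00765), Creb1 (-0.31, adjusted p = 0.00916), the chaperone Canx (-0.39, adjusted p = 5.6e-05) and Erap1 (-0.35, adjusted p = 0.00843). Tapbp was higher (0.36, adjusted p = 0.00629), as were Fcgrt (1.35, adjusted p = 1.47e-08) and Mr1 (0.83, adjusted p = 3.39e-06).

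In DKO against MycKO peptide loading gave 1 higher, 2 lower and 3 not called, immunoproteasome 1 higher, 0 lower and 4 not called, regulators 4 higher, 2 lower and 12 not called and other class I genes 3 higher, 0 lower and 4 not called. Tapbp rose by 0.85 (adjusted p = 9.15e-06), while Tapbpl (-0.44, adjusted p = 0.0103) and Canx (-0.25, adjusted p = 0.00614) fell. Psmb8 rose by 0.45 (adjusted p = 0.0148), and Psmb9 was at 0.37 (adjusted p = 0.244). Stat2 (0.92, adjusted p = 6.46e-08), Irf9 (0.61, adjusted p = 6.34e-05) and Nlrc5 (0.50, adjusted p = 0.0184) rose, and Irf1 fell (-0.63, adjusted p = 0.000454). Hfe (0.75, adjusted p = 0.000633), Fcgrt (0.57, adjusted p = 0.000393) and Mr1 (0.29, adjusted p = 0.0454) rose. In the interaction the counts were 1 higher, 1 lower and 4 not called for peptide loading, 1 higher, 0 lower and 4 not called for immunoproteasome, 3 higher, 0 lower and 15 not called for regulators and 0 higher, 0 lower and 7 not called for other class I genes. Tapbp (0.90, adjusted p = 0.000287), Psmb8 (0.74, adjusted p = 0.0088), Stat2 (0.62, adjusted p = 0.00034) and Irf9 (0.60, adjusted p = 0.00262) were called higher and Tapbpl lower (-0.77, adjusted p = 0.00353), while Nlrc5 (0.61, adjusted p = 0.0573), Irf1 (-0.36, adjusted p = 0.144) and Psmb9 (0.63, adjusted p = 0.193) were not called.

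Interferon-stimulated genes, which respond to the same signals as class I genes, were also lowest in primary MycKO. Their summed CPM was 896, 735 and 770.1 in WT, 741, 736 and 799 in MlxKO, 316, 310.4 and 332 in MycKO and 603, 628 and 668 in DKO. MycKO was lowest and DKO lay between it and the others, with no overlap. Of the 21 tested, 19 fell in MycKO against WT and 0 rose (median -1.30), led by Ifi44 (-2.38, adjusted p = 3.38e-10), Oas1a (-2.30, adjusted p = 5.01e-09) and Usp18 (-2.29, adjusted p = 2.47e-10). In MlxKO 3 rose, Cxcl10 (0.84, adjusted p = 0.0127), Ifit1 (0.45, adjusted p = 0.0318) and Ifit3 (0.40, adjusted p = 0.0379), and 1 fell (median -0.04). DKO against WT gave 2 higher, 10 lower and 9 not called (median -0.33), with Oas1a at -1.04 (adjusted p = 1.24e-05), Gbp2 at 0.82 (adjusted p = 2.08e-06) and Usp18 at -0.58 (adjusted p = 0.000181). Against MycKO 20 of 21 rose in DKO (median 0.97), led by Ifi44 (2.03, adjusted p = 2.17e-09), Irf7 (1.83, adjusted p = 3.72e-07) and Iigp1 (1.75, adjusted p = 3.18e-06). The interaction gave 18 higher, 0 lower and 3 not called (median 1.01), led by Irf7 (2.23, adjusted p = 4.36e-06), Usp18 (1.93, adjusted p = 1.56e-07) and Ifi44 (1.92, adjusted p = 3.75e-07).

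Markers of macrophages, which carry class I and class II molecules, moved in the same primary comparisons. Their summed CPM over 15 genes was 757, 600.2 and 380.3 in WT, 411, 508 and 454 in MlxKO, 97.5, 65.3 and 73.4 in MycKO and 153, 139 and 304 in DKO. MycKO was lowest, DKO lay above it and below every WT library, and WT was uneven between its libraries. The most abundant was Lyz2, at 298, 234 and 152 CPM in the WT libraries, 166, 216 and 208 in MlxKO, 47.1, 28.5 and 33.2 in MycKO and 66.7, 57.1 and 142 in DKO. All 15 markers had reads above 3 in at least 1 primary library, and 14 were tested. In MycKO against WT 14 of 14 fell (median -2.56), led by Laptm5 (-3.19, adjusted p = 1.27e-08), Mpeg1 (-2.95, adjusted p = 1.36e-07) and C1qb (-2.83, adjusted p = 5.11e-07). MlxKO gave 0 higher, 0 lower and 14 not called (median -0.37), and DKO against WT 0 higher, 14 lower and 0 not called (median -1.63), led by Laptm5 (-1.96, adjusted p = 1.55e-06), C1qb (-1.92, adjusted p = 2.13e-05) and Mrc1 (-1.85, adjusted p = 1.22e-05). DKO against MycKO gave 11 higher, 0 lower and 3 not called (median 1.02), led by Itgam (1.86, adjusted p = 8.48e-06), Cd14 (1.59, adjusted p = 0.000293) and Mpeg1 (1.32, adjusted p = 0.00102), and the interaction 12 higher, 0 lower and 2 not called (median 1.34), led by Itgam (2.40, adjusted p = 4.04e-05), Mpeg1 (1.72, adjusted p = 0.00302) and C1qa (1.69, adjusted p = 0.0127). The part of these cells in the class I values was not tested.

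Markers of other cell types were fewer. The 7 lymphocyte genes were not tested in either table, with a summed level of at most 0.329 CPM, and Cd3e, Cd3d, Ms4a1 and Cd8a were at 0 in all libraries. Of 6 endothelial markers 2 were tested, Kdr and Tek, with 0 higher, 1 lower and 1 not called in MycKO, 0 higher, 1 lower and 1 not called in MlxKO and 1 higher, 1 lower and 0 not called in DKO. Kdr fell against WT in all 3 knockouts, MycKO (-1.18, adjusted p = 6.33e-06), MlxKO (-1.90, adjusted p = 5.53e-07) and DKO (-1.80, adjusted p = 4.79e-08), while Tek rose in DKO (0.78, adjusted p = 0.00419). Of 6 epithelial markers 2 were tested, and both Krt8 and Krt18 fell in all 3 knockouts, with log2 fold changes from -2.73 to -1.73. Summed over the list, epithelial markers stood at 19.9, 17.3 and 16.5 CPM in WT, 3.25, 3.23 and 4.83 in MlxKO, 2.00, 2.09 and 2.24 in MycKO and 2.76, 1.95 and 2.59 in DKO. WT was highest. The 10 fibroblast markers gave 8 higher, 0 lower and 2 not called in MycKO, 2 higher, 1 lower and 7 not called in MlxKO and 6 higher, 2 lower and 2 not called in DKO, and Col1a1, Col1a2 and Vim were present in every library. Of 8 class II genes 2 were tested, with 1 higher, 0 lower and 1 not called in MycKO, 0 higher, 0 lower and 2 not called in MlxKO and 2 higher, 0 lower and 0 not called in DKO. H2-DMb1 was at 0.43 (adjusted p = 0.0478) in MycKO and 0.98 (adjusted p = 0.000139) in DKO, and Ciita, H2-Aa and H2-Oa had 3 reads or fewer in all 12 primary libraries. In DKO against MycKO the counts were 0 higher, 1 lower and 1 not called for endothelial, 1 higher, 0 lower and 1 not called for epithelial, 1 higher, 4 lower and 5 not called for fibroblast and 1 higher, 0 lower and 1 not called for class II genes. The interaction gave 1 higher, 0 lower and 1 not called, 2 higher, 0 lower and 0 not called, 1 higher, 3 lower and 6 not called and 0 higher, 0 lower and 2 not called in the same order. Of the fibroblast markers Dcn (1.078, adjusted p = 4.34e-09), Thy1 (0.70, adjusted p = 2.5e-06) and Pdgfrb (0.66, adjusted p = 1.77e-07) changed most in MycKO, and Col3a1 (0.56, adjusted p = 0.00128), Thy1 (-0.38, adjusted p = 0.00559) and Pdgfrb (0.27, adjusted p = 0.00676) in MlxKO.

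**Figure D4:**
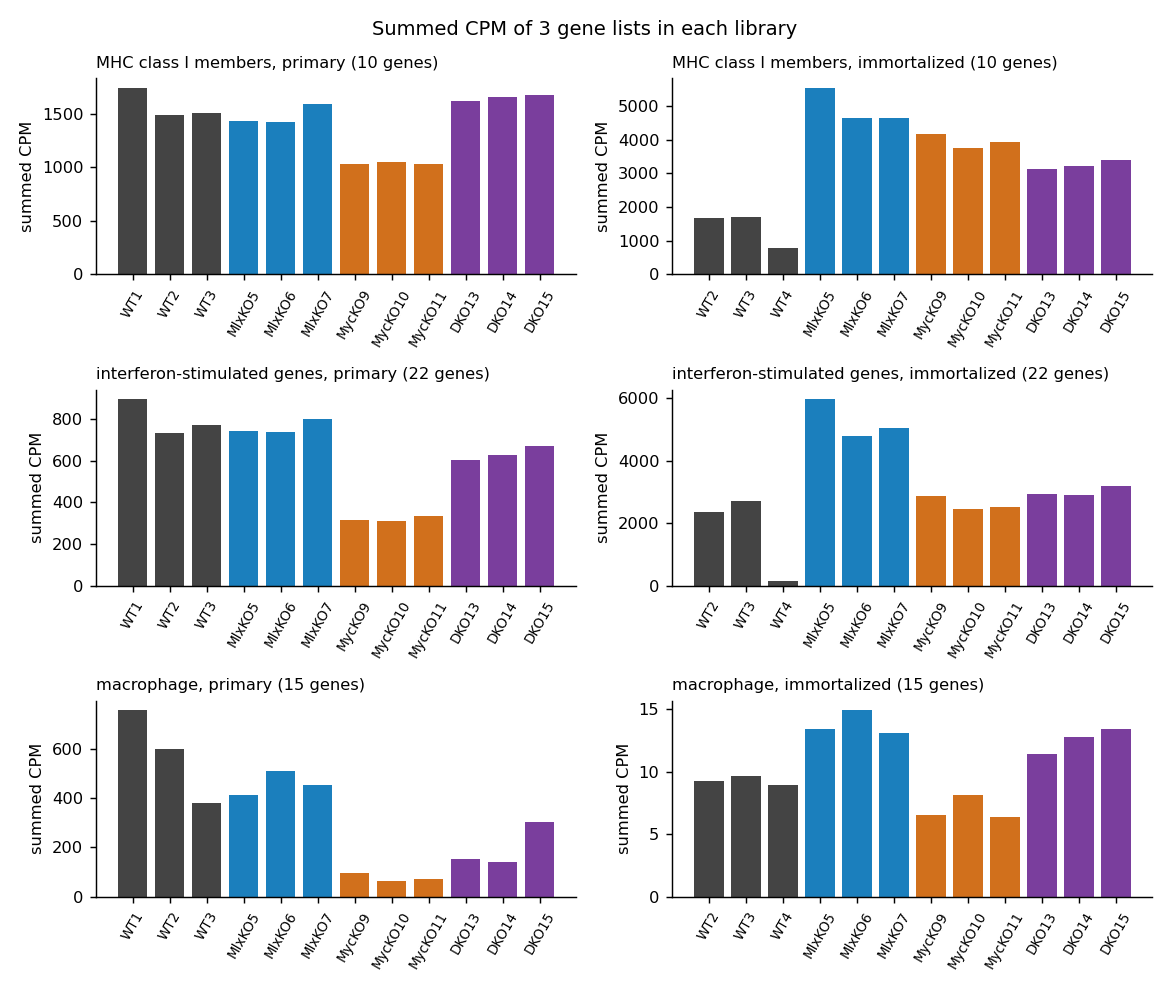
Summed CPM per library (bars from 0) of the 10 class I genes, 22 interferon-stimulated genes and 15 macrophage markers in primary (left) and immortalized MEFs (right), coloured by group. The primary MycKO bars are the lowest in all 3 lists; in immortalized cells WT4 is lowest for class I and interferon-stimulated genes, and macrophage markers sum to at most 14.9 CPM.

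In immortalized cells most class I genes were lowest in WT, and the values of MlxKO against WT, which chose these genes, are given without a test. H2-K1 read 195, 198 and 60.9 CPM in the WT libraries, 1074, 931 and 895 in MlxKO, 552, 519 and 522 in MycKO and 394, 361 and 382 in DKO. H2-D1 read 183, 236 and 90.3 CPM in the WT libraries, 1083, 1114 and 1050.4 in MlxKO, 888, 865 and 835 in MycKO and 637, 523 and 544 in DKO. For both classical chains the 4 groups did not overlap, with MlxKO highest, then MycKO, DKO and WT. H2-Q4 read 59.5, 76.3 and 15.2 CPM in the WT libraries, 359.7, 409.6 and 389 in MlxKO, 154, 171 and 167 in MycKO and 179, 154 and 146 in DKO, so MycKO and DKO overlapped between MlxKO above and WT below. H2-Q6 read 2.17, 2.27 and 0.913 CPM in the WT libraries, 197, 156 and 157 in MlxKO, 16.4, 19.2 and 17.3 in MycKO and 30.3, 24.7 and 27.3 in DKO. H2-Q7 read 3.40, 4.99 and 3.04 CPM in the WT libraries, 189, 179 and 171 in MlxKO, 25.3, 22.3 and 22.3 in MycKO and 31.8, 31.4 and 27.7 in DKO. Both Qa-2 genes were highest in MlxKO, then in DKO, MycKO and WT, with no overlap. H2-T22 read 44.04, 69.7 and 19.8 CPM in the WT libraries, 207, 186 and 188 in MlxKO, 178, 159.6 and 167 in MycKO and 140.1, 116 and 132 in DKO. H2-T23 read 21.3, 23.9 and 1.77 CPM in the WT libraries, 50.2, 42.3 and 42.5 in MlxKO, 36.2, 32.1 and 33.8 in MycKO and 22.9, 16.97 and 20.9 in DKO. H2-T22 followed the order of the classical chains, while H2-T23 in DKO overlapped with WT. B2m read 1055, 955 and 566 CPM in the WT libraries, 2138, 1346 and 1479 in MlxKO, 2191, 1828 and 2025 in MycKO and 1546, 1885 and 2016 in DKO, with WT lowest and the 3 knockouts overlapping. Tap1 read 67.2, 87.6 and 8.83 CPM in the WT libraries, 187, 202 and 195 in MlxKO, 71.7, 75.7 and 72.6 in MycKO and 94.5, 78.0 and 75.2 in DKO. Tap2 read 33.1, 45.2 and 6.63 CPM in the WT libraries, 52.8, 71.97 and 74.9 in MlxKO, 53.98, 60.8 and 60.4 in MycKO and 51.2, 37.4 and 37.4 in DKO. Tap1 was highest in MlxKO and its WT libraries overlapped with MycKO and DKO, whereas Tap2 in MlxKO overlapped with MycKO and Tap2 in WT overlapped with DKO.

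The ratio of the MlxKO to the WT mean was 95.2 for H2-Q6 and 47.1 for H2-Q7, against 6.39 for H2-K1, 6.38 for H2-D1 and 7.67 for H2-Q4. It was 4.35 for H2-T22, 2.88 for H2-T23, 1.93 for B2m, 3.57 for Tap1 and 2.35 for Tap2. All 10 genes had every MlxKO library above every WT library, as 23.9% of all genes tested did, and nothing is read from that count since the contrast chose the genes. WT4 was the lowest WT library for each of them. Without it the ratios were 76.5 for H2-Q6, 42.8 for H2-Q7, 4.92 for H2-K1, 5.18 for H2-D1, 5.68 for H2-Q4, 3.40 for H2-T22, 1.99 for H2-T23, 1.65 for B2m, 2.51 for Tap1 and 1.70 for Tap2. The neighbour H2-Q5 read 0.0586, 0.388 and 0 CPM in the WT libraries, 23.9, 25.9 and 23.8 in MlxKO, 4.65, 5.11 and 3.55 in MycKO and 4.83, 3.85 and 3.81 in DKO. It too was highest in MlxKO and near 0 in WT. H2-Q5 shared 42.2% of its 50-base stretches with another gene, 25.5% with H2-Q7, and the H2-Q8 and H2-Q9 genes have no row in the tables. The sum of H2-Q6 and H2-Q7 was 5.56, 7.27 and 3.96 CPM in WT, 385, 335 and 328 in MlxKO, 41.7, 41.5 and 39.6 in MycKO and 62.04, 56.2 and 55.1 in DKO. All 7 H2 genes summed to 508, 611 and 192, 3158, 3018 and 2892, 1849.9, 1788 and 1763 and 1435, 1227 and 1279.8 CPM in that order. These sums leave out H2-T10 and H2-Q10, which share stretches with H2-T22 and H2-Q7, and reads shared with those were not tested.

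Immortalized MycKO was compared with the same 3 WT libraries that took part in choosing the genes. Of the 8 genes other than H2-Q6 and H2-Q7, 7 were called higher and 0 lower, where 47.95% of all genes were called, 24.4% higher and 23.5% lower. H2-K1 rose by 1.99 (95% interval 1.26 to 2.71, adjusted p = 0.000507) and H2-D1 by 2.45 (95% interval 1.89 to 3.002, adjusted p = 1.55e-05). H2-Q4 rose by 1.96 (adjusted p = 0.00221), H2-T22 by 2.06 (adjusted p = 0.00023), H2-T23 by 1.60 (adjusted p = 0.0437), B2m by 1.28 (95% interval 0.76 to 1.79, adjusted p = 0.00102) and Tap2 by 1.37 (adjusted p = 0.0332). Tap1 was not called (0.93, 95% interval -0.33 to 2.19, adjusted p = 0.203). Of the 8 genes 4, H2-K1, H2-D1, H2-Q4 and B2m, were lower in primary MycKO and higher here, as were 2.50% of all genes tested in both tables. The MycKO means of H2-Q6 and H2-Q7 were 9.87 and 6.11 times those of WT, and 7.93 and 5.55 times without WT4. Without WT4, where 54.03% of all genes were called, the log2 fold changes were 1.43 (adjusted p = 8.73e-08) for H2-K1, 2.05 (adjusted p = 1.39e-08) for H2-D1, 1.27 (adjusted p = 1.63e-06) for H2-Q4 and 1.58 (adjusted p = 1.47e-06) for H2-T22. They were 0.57 (adjusted p = 0.00333) for H2-T23, 1.000 (adjusted p = 0.000457) for B2m, 0.58 (adjusted p = 0.0144) for Tap2 and -0.06 (adjusted p = 0.689) for Tap1, so the same 7 were called, with smaller rises. The call of H2-T23 was lost without any of the libraries MlxKO5, MlxKO6, MlxKO7, MycKO9, MycKO10, MycKO11, DKO13, DKO14 and DKO15 (adjusted p = 0.0563 to 0.1) and that of Tap2 without MycKO9, MycKO10 or MycKO11 (0.0643 to 0.077), while Tap1 was called without WT3 (0.0378). Neither edgeR nor DESeq2 called H2-T23 (adjusted p = 0.107 and 0.156) or Tap2 (0.0711 and 0.0924), nor did a fit with no filter on low values or of WT and MycKO alone.

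Immortalized DKO was compared with the same WT libraries. Of the 8 genes other than H2-Q6 and H2-Q7, 5 were called higher and 0 lower, where 18.9% of all genes were called, 10.4% higher and 8.51% lower. That share was smaller in some other fits: 906 genes instead of 2434 were called in a fit of WT and DKO alone, and 1095 without DKO13. H2-K1 rose by 1.502 (95% interval 0.78 to 2.23, adjusted p = 0.00966) and H2-D1 by 1.84 (95% interval 1.29 to 2.40, adjusted p = 0.000621). H2-Q4 rose by 1.92 (adjusted p = 0.00824), H2-T22 by 1.68 (adjusted p = 0.00355) and B2m by 1.12 (95% interval 0.61 to 1.64, adjusted p = 0.00762). H2-T23 (0.87, adjusted p = 0.32), Tap1 (1.09, adjusted p = 0.201) and Tap2 (0.89, adjusted p = 0.208) were not called. H2-Q6 and H2-Q7 had DKO means 15.4 and 7.96 times those of WT, and 12.4 and 7.23 times without WT4. Leaving out WT4, with 22.05% of all genes called, gave 0.94 (adjusted p = 2.81e-05) for H2-K1, 1.44 (adjusted p = 2.72e-06) for H2-D1, 1.23 (adjusted p = 1.26e-05) for H2-Q4, 1.204 (adjusted p = 9.6e-05) for H2-T22 and 0.84 (adjusted p = 0.00481) for B2m. H2-T23 (-0.16, adjusted p = 0.45), Tap1 (0.10, adjusted p = 0.629) and Tap2 (0.10, adjusted p = 0.733) stayed uncalled, and for H2-T23 the direction turned. Tap1 and Tap2 were called without WT3 (adjusted p = 0.0416 and 0.0397). In a fit of WT and DKO libraries alone H2-K1, H2-Q4 and H2-T22 were not called (adjusted p = 0.0787, 0.0757 and 0.0518).

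The comparison of immortalized DKO with MycKO uses no library that took part in choosing the genes, except that the spread of all 12 libraries is pooled. By limma 1 of 10 was called, H2-Q6, higher by 0.61 (95% interval 0.19 to 1.03, adjusted p = 0.0316), where 29.4% of all genes were called, 14.8% higher and 14.6% lower. That call was lost without any of MycKO9, MycKO10, MycKO11, DKO13, DKO14 and DKO15 (adjusted p = 0.0508 to 0.0981). The pooled spread carried WT4. Without WT4 the differences were the same, 7 of 10 were called and 40.9% of all genes. Then H2-Q6 (0.61, adjusted p = 0.00111) and H2-Q7 (0.37, adjusted p = 0.0281) were higher in DKO. H2-K1 (-0.49, adjusted p = 0.000899), H2-D1 (-0.61, adjusted p = 0.000621), H2-T22 (-0.38, adjusted p = 0.0415), H2-T23 (-0.73, adjusted p = 0.000297) and Tap2 (-0.48, adjusted p = 0.0276) were lower. H2-Q4 (-0.04, adjusted p = 0.796), B2m (-0.16, adjusted p = 0.48) and Tap1 (0.16, adjusted p = 0.273) were not called. With WT3 left out 3 were called, H2-Q6, H2-D1 (adjusted p = 0.0395) and H2-Q7 (0.0251). Whether primary and immortalized differences differ was not tested.

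The immortalized lists depended on WT4. In MycKO against WT the interferon-stimulated genes gave 3 higher, 0 lower and 19 not called, and without WT4 9, 8 and 5 (medians 1.300 and -0.16, of all genes -0.001 and 0.0036). With all libraries the higher ones were Irf7 (3.13, adjusted p = 0.0272, without WT4 1.304, adjusted p = 1.1e-05), Isg15 (2.60, adjusted p = 0.0323, without WT4 1.05, adjusted p = 0.000977) and Gbp2 (2.19, adjusted p = 0.00211, without WT4 1.42, adjusted p = 1.19e-06). The 8 called lower without WT4 were led by Rsad2 (-2.18, adjusted p = 7.33e-08), Mx1 (-1.24, adjusted p = 9.88e-05) and Ddx58 (-0.69, adjusted p = 0.00139). So these genes went both ways without WT4. Immunoproteasome genes gave 4 higher, 0 lower and 1 not called, and without WT4 2, 0 and 3, among them Psmb8 (2.51, adjusted p = 0.000347, without WT4 1.86, adjusted p = 2.33e-07), Psmb9 (1.14, adjusted p = 0.0453, without WT4 0.42, adjusted p = 0.0293) and Psme2 (0.82, adjusted p = 0.0384, without WT4 0.38, adjusted p = 0.0754). Peptide loading gave 1 higher, 0 lower and 5 not called, and without WT4 1, 2 and 3, with Calr (0.36, adjusted p = 0.0266, without WT4 0.46, adjusted p = 0.00231) called and Tapbp (0.68, adjusted p = 0.218, without WT4 -0.06, adjusted p = 0.668) not. Regulators gave 3 higher, 4 lower and 11 not called, and without WT4 4, 4 and 10, with Nlrc5 (1.28, adjusted p = 0.028, without WT4 0.56, adjusted p = 0.00626), Irf1 (0.81, adjusted p = 0.0126, without WT4 0.47, adjusted p = 0.011) and Rfx5 (-0.83, adjusted p = 0.000727, without WT4 -0.99, adjusted p = 1.52e-05) called. The 8 other class I genes tested gave 1 lower and 4 not called, and without WT4 2 and 3, with Hfe (-1.07, adjusted p = 0.01, without WT4 -1.46, adjusted p = 2.83e-05) lower. H2-Q5 and H2-T10 were below 1 CPM in each WT library and share stretches with H2-Q7 and H2-T22. They entered the test only through the groups where they were high, so higher calls are not counted and their tests are not given. Their MycKO means were 4.43 and 3.09 CPM. Besides them H2-M3 was called higher, both with all libraries and without WT4 (without WT4 0.55, adjusted p = 0.0297).

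In immortalized DKO against WT interferon-stimulated genes gave 1 higher, 0 lower and 21 not called, and without WT4 7, 1 and 14. Immunoproteasome genes gave 1 higher, 0 lower and 4 not called, and without WT4 1, 0 and 4, and peptide loading 0 higher, 0 lower and 6 not called, and without WT4 1, 0 and 5. Regulators gave 1 higher, 2 lower and 15 not called, and without WT4 2, 3 and 13, and other class I genes 0 lower and 5 not called, and without WT4 0 and 5. Higher calls of other class I genes are again not counted because of H2-Q5 and H2-T10. The DKO means of H2-Q5 and H2-T10 were 4.16 and 2.34 CPM. Higher in DKO were Gbp2 (1.83, adjusted p = 0.0167, without WT4 1.06, adjusted p = 8.7e-05), Psmb8 (1.65, adjusted p = 0.0144, without WT4 1.001, adjusted p = 0.000362), H2-M3 (1.07, adjusted p = 0.0439, without WT4 0.58, adjusted p = 0.04996) and Ifngr1 (0.61, adjusted p = 0.00534, without WT4 0.64, adjusted p = 0.00269), and lower Irf2 (-0.47, adjusted p = 0.0372, without WT4 -0.59, adjusted p = 0.00684) and Rfx5 (-0.47, adjusted p = 0.0434, without WT4 -0.63, adjusted p = 0.00239). With all libraries Nlrc5 (1.32, adjusted p = 0.0509, without WT4 0.60, adjusted p = 0.0109), Irf1 (0.33, adjusted p = 0.32, without WT4 0.0013, adjusted p = 0.997), Tapbp (1.03, adjusted p = 0.117, without WT4 0.29, adjusted p = 0.0953) and Psmb9 (1.13, adjusted p = 0.0849, without WT4 0.42, adjusted p = 0.0651) were not called. In DKO against MycKO interferon-stimulated genes gave 0 higher, 0 lower and 22 not called, and without WT4 8, 2 and 12. Immunoproteasome genes gave 0 higher, 0 lower and 5 not called, and without WT4 0, 1 and 4, and peptide loading 1 higher, 0 lower and 5 not called, and without WT4 3, 0 and 3. Regulators gave 0 higher, 2 lower and 16 not called, and without WT4 4, 3 and 11, and other class I genes 1 higher, 0 lower and 7 not called, and without WT4 2, 0 and 6. Erap1 (0.99, adjusted p = 0.0226, without WT4 0.99, adjusted p = 5.79e-05) and Hfe (1.56, adjusted p = 0.0016, without WT4 1.56, adjusted p = 6.23e-06) were higher in DKO, and the interferon gamma receptor chain Ifngr2 (-0.54, adjusted p = 0.00468, without WT4 -0.54, adjusted p = 0.00183) and the promoter factor Rfxap (-0.45, adjusted p = 0.0343, without WT4 -0.45, adjusted p = 0.0178) lower. Not called with all libraries were Psmb8 (-0.86, adjusted p = 0.126, without WT4 -0.86, adjusted p = 0.000158), Psmb9 (-0.01, adjusted p = 0.991, without WT4 -0.01, adjusted p = 0.968), Nlrc5 (0.04, adjusted p = 0.957, without WT4 0.04, adjusted p = 0.834), Irf1 (-0.47, adjusted p = 0.144, without WT4 -0.47, adjusted p = 0.00777) and Tapbp (0.35, adjusted p = 0.584, without WT4 0.35, adjusted p = 0.0156).

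Macrophage markers were nearly absent from immortalized cells. They summed to 9.25, 9.65 and 8.95 CPM in WT, 13.4, 14.9 and 13.1 in MlxKO, 6.54, 8.13 and 6.36 in MycKO and 11.4, 12.8 and 13.4 in DKO. Adgre1, Tyrobp, C1qa and C1qb were at 0 in all 12 libraries, 8 of 15 had 3 reads or fewer in each, Lyz2 was at most 0.307 CPM, and the most abundant was Cd14 or Cd68. The interferon-stimulated genes summed to 2365, 2709.7 and 146 CPM in WT, 5982, 4789 and 5052 in MlxKO, 2863, 2464 and 2528 in MycKO and 2937, 2909 and 3193 in DKO. MlxKO was highest, MycKO and DKO lay near WT2 and WT3, and WT4 was far below all others. In MycKO against WT macrophage markers gave 0 higher, 1 lower and 2 not called, and without WT4 0, 2 and 1, endothelial 1 higher, 0 lower and 1 not called, and without WT4 1, 0 and 1, epithelial 0 higher, 0 lower and 1 not called, and without WT4 0, 1 and 0, fibroblast 3 higher, 2 lower and 5 not called, and without WT4 4, 3 and 3 and class II 1 higher, 0 lower and 2 not called, and without WT4 1, 1 and 1. The largest changes among the genes called there were Thy1 (4.17, adjusted p = 6.96e-05, without WT4 5.09, adjusted p = 3.51e-12), S100a4 (2.69, adjusted p = 0.000138, without WT4 2.75, adjusted p = 6.12e-05), Kdr (2.21, adjusted p = 1.05e-06, without WT4 2.13, adjusted p = 1.76e-07) and Col3a1 (-2.06, adjusted p = 1.6e-06, without WT4 -1.96, adjusted p = 1.28e-07). The epithelial and class II genes called lower without WT4 were Krt18 and Cd74, which reached 1 CPM only in MlxKO libraries. Their MycKO values were at most 0.165 CPM, so nothing is read from those calls. In DKO against WT macrophage markers gave 1 higher, 0 lower and 2 not called, and without WT4 1, 0 and 2, endothelial 1 higher, 0 lower and 1 not called, and without WT4 1, 0 and 1, epithelial 0 higher, 0 lower and 1 not called, and without WT4 0, 0 and 1, fibroblast 1 higher, 1 lower and 8 not called, and without WT4 2, 2 and 6 and class II 1 higher, 0 lower and 2 not called, and without WT4 1, 0 and 2, with H2-DMb1 (1.49, adjusted p = 0.0174, without WT4 0.90, adjusted p = 0.00224) and Tek (1.24, adjusted p = 0.00675, without WT4 1.01, adjusted p = 0.00812) as the largest changes among the genes called. In DKO against MycKO macrophage markers gave 1 higher, 0 lower and 2 not called, and without WT4 2, 0 and 1, endothelial 1 higher, 1 lower and 0 not called, and without WT4 1, 1 and 0, epithelial 0 higher, 0 lower and 1 not called, and without WT4 0, 0 and 1, fibroblast 2 higher, 2 lower and 6 not called, and without WT4 3, 3 and 4 and class II 0 higher, 0 lower and 3 not called, and without WT4 0, 0 and 3. Thy1 (-5.80, adjusted p = 6.69e-06, without WT4 -5.80, adjusted p = 2.5e-13), S100a4 (-2.05, adjusted p = 0.00142, without WT4 -2.05, adjusted p = 0.000364) and Kdr (-1.77, adjusted p = 7.09e-06, without WT4 -1.77, adjusted p = 3.82e-07) were lower in DKO, and Cd68 (1.60, adjusted p = 7.7e-06, without WT4 1.60, adjusted p = 7.09e-07) higher.

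How alike the genes moved is given as Pearson's r of log2(CPM + 1) over 12 libraries, as a description with no p, since the libraries fall into groups. In primary cells each gene was compared with the mean of the other 9. H2-D1 (0.99), H2-K1 (0.971) and H2-Q4 (0.926) followed the rest most closely, and Tap2 (0.336), H2-T22 (0.456) and H2-T23 (0.506) least. In immortalized cells r ran from 0.776 in B2m to 0.991 in H2-K1. The MlxKO and WT libraries there took part in choosing the genes, so nothing is read from likeness in immortalized cells. Among all other genes the most like the mean of the class I genes in primary cells were Ccl5 (0.972), Klf2 (0.967), Tapbp (0.964), Slfn2 (0.961) and Ifi27l2a (0.959). Ccl5, a chemokine gene, read 7.79, 5.92 and 3.04 CPM in the WT libraries, 2.99, 2.51 and 3.23 in MlxKO, 0.887, 0.589 and 0.747 in MycKO and 6.03, 7.18 and 7.83 in DKO, lowest in MycKO. In immortalized cells the most alike were Gbp2 (0.993), Shisa5 (0.984), Psmb8 (0.98), Lgals9 (0.978) and Grina (0.976). Gbp2, a guanylate-binding protein induced by interferon, read 18.3, 20.4 and 3.10 CPM in the WT libraries, 103, 71.7 and 82.97 in MlxKO, 55.01, 54.3 and 50.5 in MycKO and 39.2, 41.6 and 43.6 in DKO, highest in MlxKO and lowest in WT4. Most like H2-Q7 alone in immortalized cells were H2-Q5 (0.994), Gbp9 (0.976), Gabre (0.972), Oas1g (0.959) and Hsf1 (0.952). Gbp9 read 0, 0.0555 and 0.304 CPM in the WT libraries, 38.4, 25.7 and 30.8 in MlxKO, 2.25, 3.35 and 2.48 in MycKO and 6.88, 8.14 and 7.23 in DKO. It was picked for its likeness to H2-Q7 over these libraries, so nothing is read from their shared order of groups.

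Class I promoters are known for a shared upstream module, and the promoter sequences of the genes are shown. RefSeq promoters of 250 bases before to 50 after the gene start matched 9 of 10 genes in GRCm38.p6, a build that differs from that of the gene models above, and Tap2 had no entry. They were searched on both strands for GGGATTCCC, an NF-kappaB type motif, for GAANNGAAA and GAAANNGAAA, of the interferon response type, for TGACG, a core of the CRE type, for CCAAT, and for the E-box CACGTG bound by Myc and Mlx family proteins. The form GAANNGAAA was set after the sequences were seen. GGGATTCCC occurred in 4 of 9 (H2-K1, H2-D1, H2-Q6 and H2-Q7) and in 0.353% of all 32851 promoters. GAANNGAAA occurred in 5 of 9 (those 4 and H2-Q4) and in 7.52% of all, and GAAANNGAAA in 3 of 9 (H2-T22, H2-T23 and B2m) and 3.44%. TGACG occurred in 7 of 9 and 20.8% of all, and CCAAT in 9 of 9 and 37.4%. CACGTG occurred in 0 of 9 and 7.15% of all, which says only that these letters are not in these windows. A match is a description, not a site or a cause. Capitals mark the matches in the stretches below, 5′ to 3′ on the strand of the gene, from H2-K1 chr17:34000334-34000462 (minus strand), H2-D1 chr17:35262919-35263050 (plus strand), H2-Q4 chr17:35379459-35379571 (plus strand), H2-Q6 chr17:35424673-35424804 (plus strand), H2-Q7 chr17:35439018-35439148 (plus strand), H2-T22 chr17:36042755-36042948 (minus strand), H2-T23 chr17:36032744-36032830 (minus strand), B2m chr2:122147543-122147643 (plus strand) and Tap1 chr17:34187329-34187479 (plus strand).
H2-K1: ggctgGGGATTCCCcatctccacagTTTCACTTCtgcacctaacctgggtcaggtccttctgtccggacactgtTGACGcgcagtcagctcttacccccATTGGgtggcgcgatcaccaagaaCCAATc
H2-D1: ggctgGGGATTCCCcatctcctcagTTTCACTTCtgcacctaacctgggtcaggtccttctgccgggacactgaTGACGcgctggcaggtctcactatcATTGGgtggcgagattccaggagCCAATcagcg
H2-Q4: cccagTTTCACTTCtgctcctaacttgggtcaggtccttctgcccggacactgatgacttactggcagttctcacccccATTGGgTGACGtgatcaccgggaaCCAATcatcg
H2-Q6: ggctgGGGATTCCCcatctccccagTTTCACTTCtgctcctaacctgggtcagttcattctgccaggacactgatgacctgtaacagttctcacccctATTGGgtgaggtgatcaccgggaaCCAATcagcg
H2-Q7: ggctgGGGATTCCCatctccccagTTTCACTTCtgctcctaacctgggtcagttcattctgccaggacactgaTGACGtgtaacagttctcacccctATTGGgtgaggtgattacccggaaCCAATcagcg
H2-T22: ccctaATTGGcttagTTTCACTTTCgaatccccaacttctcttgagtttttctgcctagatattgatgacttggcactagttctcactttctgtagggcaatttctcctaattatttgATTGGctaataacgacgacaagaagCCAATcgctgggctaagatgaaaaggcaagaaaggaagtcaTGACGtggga
H2-T23: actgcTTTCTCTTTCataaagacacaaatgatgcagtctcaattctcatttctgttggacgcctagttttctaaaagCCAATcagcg
B2m: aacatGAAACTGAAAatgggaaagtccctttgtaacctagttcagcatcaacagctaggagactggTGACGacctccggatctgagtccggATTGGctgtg
Tap1: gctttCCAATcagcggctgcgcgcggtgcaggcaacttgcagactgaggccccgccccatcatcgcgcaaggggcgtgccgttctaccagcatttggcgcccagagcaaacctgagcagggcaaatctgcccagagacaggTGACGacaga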

How the data were processed

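The authors deposited CPM tables of primary and immortalized MEFs, made with CLC Genomics Workbench 22 on GRCm39, and these were the signal analysed. Their scaling to CPM is not described. Reads were recovered by dividing by the CPM of a single read, fitted in each library, and 100% came out whole within 0.05 of a read. The test covered genes that reached 1 CPM in 3 or more libraries of a table, and was run on log2(CPM + 1) with limma 3.58.1, with 1 mean per group and a pooled spread, and called at a Benjamini-Hochberg adjusted p under 0.05. edgeR 4.0.16 and DESeq2 1.42.0 were run on the recovered reads, in R 4.3.3, with tables handled in Python 3.11.15. The code was tested on simulated data.

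The 10 class I genes and the lists (peptide loading, immunoproteasome, other class I genes, regulators, interferon-stimulated genes, MHC class II, macrophage, lymphocyte, endothelial, epithelial and fibroblast) were chosen with earlier results of these data known. Named from a list in a comparison were at most the 3 called genes with the largest absolute log2 fold change, and Nlrc5, Tapbp, Irf1, Psmb8 and Psmb9 throughout. Genes most alike came from all genes tested.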

Additional observations from a re-analysis of the deposited data

Results flagged for a closer look

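The effect of losing Mlx in primary cells differed by whether Myc was present, by the interaction test, for 9 of the 10 class I genes, where 13.5% of all genes were called. Counted without H2-Q6 and H2-Q7, it differed for 7 of 8. The differences in log2 fold change were 1.05 for H2-K1, 1.11 for H2-D1, 0.98 for H2-Q4, 0.93 for H2-Q6, 1.06 for H2-Q7, 0.59 for H2-T22, 0.36 for H2-T23, 0.60 for B2m and 0.79 for Tap1. Those of H2-Q6, H2-Q7, H2-T22 and H2-T23 lost their call without single libraries, as given in the report. In the same interaction 12 of 14 macrophage markers and 18 of 21 interferon-stimulated genes were called higher. The part of macrophages was not tested, and line and genotype cannot be told apart.

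In MycKO against WT H2-K1, H2-D1, H2-Q4 and B2m, 4 of the 8 genes other than H2-Q6 and H2-Q7, were called lower in primary and higher in immortalized cells, as were 2.50% of all genes tested in both tables. H2-Q6 and H2-Q7 are given as values. The immortalized minus the primary log2 fold change was 2.80 for H2-K1, 3.24 for H2-D1, 2.83 for H2-Q4, 3.78 for H2-Q6, 3.75 for H2-Q7 and 1.85 for B2m. This difference was not tested. The tables were scaled separately, and the immortalized WT libraries took part in choosing H2-Q6 and H2-Q7. Without WT4 the immortalized log2 fold changes were 1.43 for H2-K1, 2.05 for H2-D1, 1.27 for H2-Q4, 2.53 for H2-Q6, 2.24 for H2-Q7 and 1.000 for B2m.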

How the results depend on the processing

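Over 1500 combinations of class I gene, comparison and alternative, 1413 stayed as they were, called or not called, 58 lost the call, 29 gained it and 0 turned direction with a call. The direction of uncalled genes could turn, as for H2-T23 in immortalized DKO vs WT without WT4. H2-Q6 and H2-Q7 against the immortalized WT libraries are left out of this tally. Of the changed calls 60 came from leaving out 1 library and 27 from other settings. Leaving out 1 library, the number of class I genes called was 7 to 8 in primary MycKO vs WT, 0 to 1 in MlxKO vs WT, 2 to 4 in DKO vs WT (4 without WT1), 8 to 9 in DKO vs MycKO and 5 to 10 in the interaction (5 without DKO14). It was 7 to 10 in immortalized MycKO vs WT, 7 to 9 in DKO vs WT and 0 to 7 in DKO vs MycKO (3 without WT3, 7 without WT4, 0 without each of MycKO9, MycKO10, MycKO11, DKO13, DKO14 and DKO15). The immortalized WT libraries took part in choosing H2-Q6 and H2-Q7, and over the other 8 genes the numbers were 5 to 8 in MycKO vs WT and 5 to 7 in DKO vs WT. In primary MlxKO vs WT 1 gene was called without WT3, without MycKO10 or by DESeq2. A fit of only the groups compared called H2-D1 and B2m, 2 of the 8 genes other than H2-Q6 and H2-Q7, in immortalized DKO vs WT (4 with these genes, from which nothing is read). In immortalized DKO vs MycKO that fit called 7 and DESeq2 3, while a pseudocount of 0.1 and no filter on low values each gave 0. The shares of all genes called in these fits are not given here, so nothing is read from these counts. With a mean of at least 5 CPM, H2-Q6 and H2-Q7 were not tested in primary cells.

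The log2 difference of the summed H2-Q6 and H2-Q7 in primary MlxKO vs WT, 0.0364, turned to -0.0411 without the library WT3 and -0.0326 without the library MlxKO6. Leaving out 1 library, that sum ranged over -1.75 to -1.34 in primary MycKO vs WT, -0.0411 to 0.0949 in MlxKO vs WT, -0.40 to -0.07 in DKO vs WT and 1.11 to 1.52 in DKO vs MycKO, and over 2.51 to 2.88, 2.99 to 3.36 and 0.43 to 0.52 in immortalized MycKO vs WT, DKO vs WT and DKO vs MycKO. The sum of all 7 H2 genes ranged over -0.77 to -0.57, -0.23 to -0.03, 0.07 to 0.26 and 0.73 to 0.92 in the primary comparisons in the same order, and over 1.69 to 2.52, 1.23 to 2.07 and -0.52 to -0.41 in the immortalized ones.

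Of all genes tested 1164 were called in primary MlxKO vs WT, but 620 without WT1, 626 without WT2, 735 without MlxKO6 and 2025 without MycKO10. In immortalized DKO vs WT 2434 were called, but 906 in a fit of those groups alone, and 1095, 1493 and 1381 without DKO13, DKO14 and DKO15. Scaled to library totals, 31.3% instead of 48.3% of the genes called were higher in primary MycKO vs WT, 53.7% instead of 42.2% in MlxKO vs WT and 37.2% instead of 48.5% in DKO vs WT, and Tap1 was called lower in DKO vs WT (adjusted p = 0.0433).

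No paired analysis was possible because nothing links the numbers in the column names to the replicates in the labels. A replicate block was not run. For every change above the cause was not tested. Shared sequence among H2 genes, differences in line and sex, and cells other than fibroblasts were not tested as sources of the differences.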
